A study of Mus musculus with 6 samples.

Results

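The 10 genes described here encode ligands, receptor chains, decoy and antagonist of the IL-1 and IL-33 systems, plus IL-18 and an IL-36 receptor chain. They were chosen by symbol (*Il1a*, *Il1b*, *Il33*, *Il18*, *Il1r1*, *Il1rl1*, *Il1rl2*, *Il1rap*, *Il1r2* and *Il1rn*), and all 10 were found among the 20327 symbols counted. Cells came from the colon of *Il11-Egfp* mice on a C57BL/6 background, 9 to 15 weeks old, which drank 1.5% dextran sodium sulfate (DSS) for 5 days, then water, with the colon taken on day 7. Cells without Ter119, CD45, CD31 and EpCAM, the surface markers of red cells, leukocytes, endothelium and epithelium, were sorted into EGFP+ and EGFP- cells, with 3 libraries in each group from 3 mice. Both groups therefore carried the same reporter and had the same DSS treatment, and no library came from a mouse without DSS. The reporter is a bacterial artificial chromosome with *Egfp* placed in *Il11*, so it marks cells by the activity of a transgene, and the sorted EGFP+ cells were not fully pure according to the methods.

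IL-1α and IL-1β signal through a receptor made of IL-1R1 (*Il1r1*) and the shared accessory chain IL-1RAcP (*Il1rap*), IL-33 signals through ST2 (*Il1rl1*) with the same accessory chain, and IL-36 cytokines use the receptor encoded by *Il1rl2* with it. IL-1R2 (*Il1r2*) binds IL-1 without signalling, and the antagonist IL-1Ra (*Il1rn*) occupies IL-1R1 without activating it. In the inflamed gut, IL-1 is released mainly by myeloid cells and acts on stromal cells, while IL-33 is an alarmin stored in the nuclei of stromal and epithelial cells and released on damage, with ST2 best known on mast cells, regulatory T cells and group 2 innate lymphoid cells.

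RNA was read by 5′Tag-seq, which counts tags from the 5′ side of polyA transcripts. The libraries held 1057170, 1078179 and 1169817 tags in EGFP- replicates 1, 2 and 3, and 1046538, 1022851 and 1049048 tags in EGFP+ replicates 1, 2 and 3. Levels below are tag counts scaled by TMM to the tags of the tested genes (normalized counts per 1e6, CPM), and the floor was set at 3 tags, which is 2.56 to 2.93 CPM of the library total. Testing was limited to genes that reached 10 tags in 3 or more of the 6 libraries, and calls required an adjusted p under 0.05 together with a fold change over 2. *Il11*, the gene behind the sort, had 28, 51 and 89 tags in EGFP- replicates 1, 2 and 3. In EGFP+ replicates 1, 2 and 3 it had 1357, 732 and 2658 tags, in the direction of the labels. The paper places *Egfp* in the second exon of *Il11* in the transgene, so 5′ tags counted as *Il11* may include reporter RNA. This was not tested.

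The genes called were those of 2 receptors and of the antagonist, and no ligand gene was called. *Il1rl1* was 53.7-fold higher in EGFP+ cells, *Il1r1* was 2.23-fold higher and the antagonist gene *Il1rn* was 7.19-fold higher, whereas *Il33*, the accessory chain gene *Il1rap* and the decoy gene *Il1r2* were not called, nor was the IL-36 receptor gene *Il1rl2*. *Il1a*, *Il1b* and *Il18* had too few tags to be tested. Of the 7 tested genes 3 were called higher and 0 were called lower by edgeR's quasi-likelihood test, against 3.44% of all 9334 tested genes called higher and 6.37% called lower. At an unadjusted p under 0.05, 4 were higher and 0 lower (12.2% and 14.5% of all tested genes), and DESeq2 called 3 higher and 0 lower. All EGFP+ libraries stood above all EGFP- libraries for 4 of the 7 genes (14.5% of all tested genes) and below them for 0 (16.7% of all tested genes). *Il1rn* reached the filter only through the EGFP+ libraries and so had to differ, which leaves 6 genes that passed it otherwise. RNA was measured in bulk, so fewer cells expressing a gene and less RNA per cell cannot be told apart.

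**Figure D1:**
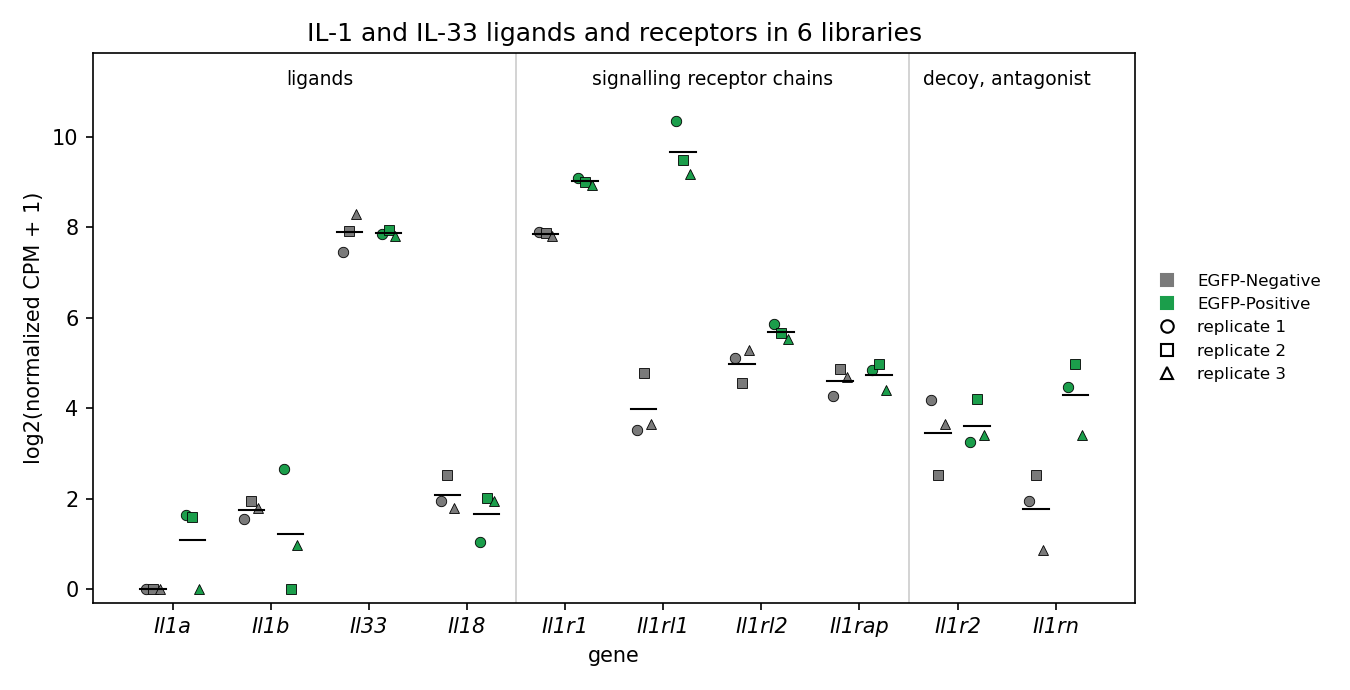
Level of each of the 10 genes in the 6 libraries, as log2(normalized CPM + 1) on the vertical axis, with ligands, receptor chains, and decoy and antagonist from left to right. Each symbol is 1 library (gray EGFP-, green EGFP+, shape by replicate) and each bar the mean of 3 log2 values; *Il1r1*, *Il1rl1*, *Il1rl2* and *Il1rn* show no overlap between the groups.

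Among the ligands, only *Il33* was well covered. It had 182, 256 and 380 tags in EGFP- replicates 1, 2 and 3, or 174, 241 and 312 normalized CPM. In EGFP+ replicates 1, 2 and 3 it had 216, 240 and 233 tags, or 229, 244 and 222 normalized CPM. The EGFP+ libraries were close to each other and lay inside the range of the EGFP- libraries, of which replicate 1 was the lowest and replicate 3 the highest. The means were 242 ± 69.1 and 232 ± 11.0 normalized CPM (SD, n = 3). For *Il33* the fitted log2 difference was -0.07 (95% interval -0.47 to 0.34, adjusted p = 0.869 in the quasi-likelihood test of edgeR, Benjamini-Hochberg). This interval leaves out a fold change of 2 in either direction. Between same-numbered libraries the log2 ratio of *Il33* was 0.40, 0.01 and -0.49, so its sign differed between these pairs.

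*Il1b*, the gene of the main secreted form of IL-1, had 2, 3 and 3 tags in EGFP- and 5, 0 and 1 tags in EGFP+ replicates 1, 2 and 3. *Il1a* had 0 tags in each EGFP- library and 2, 2 and 0 tags in EGFP+ replicates 1, 2 and 3. *Il18*, a related cytokine that is made as an inactive precursor, had 3, 5 and 3 tags in EGFP- and 1, 3 and 3 tags in EGFP+ replicates 1, 2 and 3. These 3 genes stood at or near the floor in every library, with at most 5 tags, and no difference between the groups was detectable at this depth.

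*Il1rl1*, which encodes the IL-33 receptor ST2, had 11, 28 and 14 tags in EGFP- replicates 1, 2 and 3 and 1230, 702 and 609 tags in EGFP+ replicates 1, 2 and 3. The lowest EGFP+ library (581 normalized CPM) was far above the highest EGFP- library (26.4 normalized CPM). Its log2 fold change was 5.75 (standard error, SE, 0.359, 95% interval 4.99 to 6.50, adjusted p = 8e-09 in the quasi-likelihood test of edgeR, Benjamini-Hochberg), and the value was higher in 3 of 3 EGFP+ libraries. Between same-numbered libraries the log2 ratio was 6.96, 4.76 and 5.66. The order of the EGFP+ libraries was not that of *Il11*: *Il1rl1* was highest in replicate 1 and lowest in replicate 3, whereas *Il11* was highest in replicate 3 and lowest in replicate 2.

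*Il1r1*, the signalling receptor of IL-1, had 249, 246 and 273 tags in EGFP- replicates 1, 2 and 3, and 515, 502 and 513 tags in EGFP+ replicates 1, 2 and 3. The libraries of each group lay close together and the groups did not overlap. The means were 231 ± 6.81 and 515 ± 28.7 normalized CPM (SD, n = 3), with a log2 fold change of 1.15 (SE 0.157, 95% interval 0.83 to 1.48, adjusted p = 3.95e-05 in the quasi-likelihood test of edgeR, Benjamini-Hochberg). The log2 ratios between same-numbered libraries were 1.20, 1.14 and 1.13. The lower end of the interval lies under the fold change of 2 that the call asks for.

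*Il1rl2*, the receptor chain for IL-36, had 35, 24 and 46 tags in EGFP- and 54, 49 and 47 tags in EGFP+ replicates 1, 2 and 3. In normalized CPM the groups did not overlap, with 22.6 to 37.8 in EGFP- and 44.8 to 57.2 in EGFP+ libraries. Its log2 fold change of 0.68 (95% interval 0.17 to 1.20) had an adjusted p of 0.0676 in the quasi-likelihood test of edgeR, Benjamini-Hochberg, and of 0.0304 with the replicate block. The fold change of 1.61 is under 2, so the gene was not called with or without the block.

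*Il1rap*, the accessory chain that all 3 of these receptors need, had 19, 30 and 30 tags in EGFP- and 26, 30 and 21 tags in EGFP+ replicates 1, 2 and 3. The groups overlapped, with means of 23.7 ± 5.13 and 26.0 ± 5.38 normalized CPM (SD, n = 3). *Il1rap* had a log2 fold change of 0.13 (95% interval -0.48 to 0.74, adjusted p = 0.835 in the quasi-likelihood test of edgeR, Benjamini-Hochberg). No call was made for the accessory chain gene in the comparison that called *Il1rl1* and *Il1r1* higher.

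*Il1r2*, the decoy receptor, had 18, 5 and 14 tags in EGFP- and 8, 17 and 10 tags in EGFP+ replicates 1, 2 and 3. The groups overlapped widely and the log2 fold change was 0.08, with a 95% interval from -0.89 to 1.05 that holds a fold change of 2 upward. *Il1rn*, the receptor antagonist, had 3, 5 and 1 tags in EGFP- and 20, 30 and 10 tags in EGFP+ replicates 1, 2 and 3. No EGFP- library reached 10 tags and every EGFP+ library did, and the groups did not overlap. The means were 2.80 ± 1.95 and 20.4 ± 10.5 normalized CPM (SD, n = 3), with a log2 fold change of 2.85 (SE 0.649, 95% interval 1.48 to 4.21, adjusted p = 0.00143 in the quasi-likelihood test of edgeR, Benjamini-Hochberg). These counts are small, and the log2 fold change of *Il1rn* was 3.44 with EGFP- replicate 2 left out, which raises the fold change by over 1.5 times.

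The 3 called genes were compared with all other tested genes over the 6 libraries by Pearson's r of log2 normalized CPM, as a description of pattern. Because the 6 points fall into 2 groups, a gene that differs between the groups tends to score high. The 5 genes most like *Il1rl1* were *Slc15a3* (r = 0.997), *Immt* (0.996), *Tead1* (0.995), *Igfbp5* and *Plk2* (both 0.994). For *Il1r1* they were *Hgf* (0.997), *Plk2*, *Rnf149* and *Igfbp5* (each 0.996) and *Bmp7* (0.995). For *Il1rn* they were *Angptl4* (0.994), *Ift20* and *Tenm3* (both 0.991), *Bgn* (0.99) and *Riok1* (0.989). *Plk2* and *Igfbp5* appear for both receptors and no gene appears for *Il1rn* and a receptor.

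Of these genes, 4 receptor genes lie in 1 cluster on chromosome 1, all on the plus strand in GENCODE mouse release M21 (GRCm38). Along the chromosome they are *Il1r2* (40074079 to 40125231), *Il1r1* (40225080 to 40317257), *Il1rl2* (40324610 to 40367562) and *Il1rl1* (40429570 to 40465415), followed by the IL-18 receptor genes *Il18r1* (40465552 to 40500854) and *Il18rap* (40515362 to 40551705). The 6 genes span 478 kb. Along the cluster the log2 fold changes were 0.08 for *Il1r2*, 1.15 for *Il1r1*, 0.68 for *Il1rl2* and 5.75 for *Il1rl1*, so called and uncalled genes alternated. *Il18r1*, with 136 bases between it and *Il1rl1*, had 0, 0 and 1 tags in EGFP- and 0, 2 and 0 tags in EGFP+ replicates 1, 2 and 3, at or under the floor in each library. *Il18rap*, the gene after it, had 0, 1 and 0 tags in EGFP- and 32, 11 and 12 tags in EGFP+ replicates 1, 2 and 3, and it too reached the filter only through the EGFP+ libraries. From the summed tags its ratio was 58.3 (95% exact counting interval 10.04 to 2344, which covers counting error only), and it was called higher (adjusted p = 0.000163 in the quasi-likelihood test of edgeR, Benjamini-Hochberg). *Il18rap* was also called with EGFP+ replicate 1 left out (fitted log2 fold change 4.78, against 5.48 with all libraries) and with EGFP- replicate 2, which holds its 1 EGFP- tag, left out (7.30), so the size of the difference is loosely set. The antisense gene *Gm16894*, which lies within *Il1r2*, had at most 1 tag in any library.

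**Figure D2:**
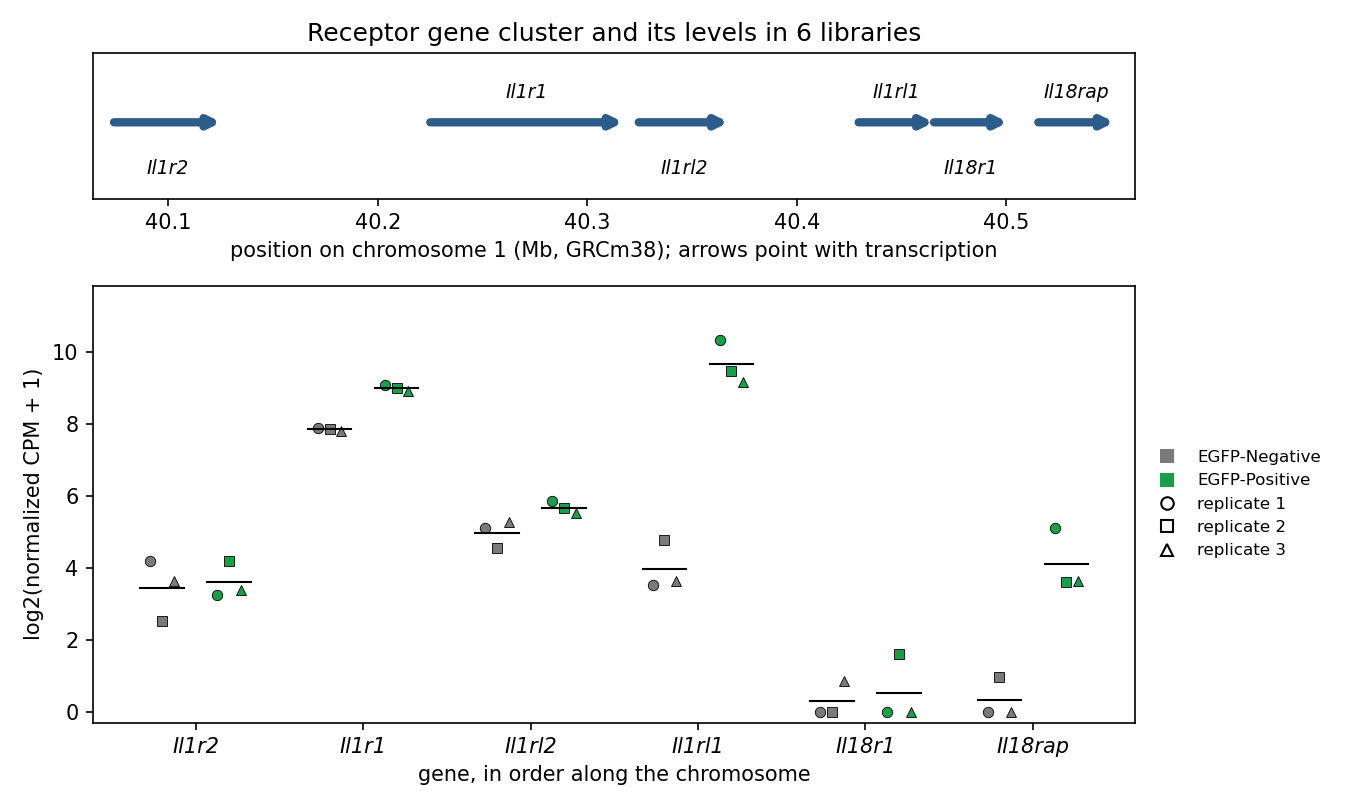
Top, the 6 protein-coding receptor genes on chromosome 1 drawn to scale in Mb (GRCm38), with arrows in the direction of transcription. Bottom, the level of each gene in the 6 libraries as log2(normalized CPM + 1), with bars at the mean of 3 log2 values; *Il1rl1* (5.75 on the log2 scale) and *Il18rap* stand apart between the groups while *Il18r1*, which lies between them, is near 0 in both.

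Tags were summed per symbol, so transcripts of 1 gene with different 5′ ends were not separated. The annotation has 5 transcripts of *Il1rl1*, with 5 different starts from 40429570 to 40440628. Soluble and membrane ST2 both come from this gene, and the counts do not tell them apart. None of the 50-nt windows in the first 300 nt of the annotated transcripts of the 10 genes, of *Il18r1* or of *Il18rap* occurred in a transcript of another gene (0 of 599 windows for *Il1rl1* and 0 of 577 for *Il1r1*), so no tag sharing between genes is visible in these windows.

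RefSeq promoter windows (GRCm38.p6, 250 bases before to 50 bases after a start) were found for all 10 genes, 15 windows in all. They were searched on both strands for the AP-1 motif TGANTCA, the GATA motif AGATAA and the NF-κB motif. In all 32851 promoter windows these have a match in 7.81%, 11.2% and 4.51%. In the 9260 windows of tested genes the shares are 5.01%, 6.08% and 5.30%. Of the 15 windows, 2 held the AP-1 motif, 2 the GATA motif and 1 the NF-κB motif, and no matches overlapped. The windows of the 3 called genes are shown because these genes differ in the same direction, for *Il1rn* the first of 3 windows, with every match in capitals. Both *Il1rl1* windows (chr1:40429320-40429619 and chr1:40439379-40439678, plus strand) hold 1 GATA match, and neither holds an AP-1 or NF-κB match. The first *Il1r1* window (chr1:40224830-40225129, plus strand) holds none of the motifs and the second (chr1:40266336-40266635, plus strand) holds 1 NF-κB match. The first *Il1rn* window (chr2:24336610-24336909, plus strand) holds 1 AP-1 match, and the other 2, not shown, hold none of the motifs. A match describes letters and does not show binding.
Il1rl1 window 1: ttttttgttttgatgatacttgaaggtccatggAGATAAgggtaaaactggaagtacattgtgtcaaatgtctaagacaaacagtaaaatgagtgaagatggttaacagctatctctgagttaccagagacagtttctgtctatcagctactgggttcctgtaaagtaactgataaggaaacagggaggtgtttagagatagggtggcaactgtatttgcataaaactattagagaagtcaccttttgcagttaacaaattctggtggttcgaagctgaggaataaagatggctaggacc
Il1rl1 window 2: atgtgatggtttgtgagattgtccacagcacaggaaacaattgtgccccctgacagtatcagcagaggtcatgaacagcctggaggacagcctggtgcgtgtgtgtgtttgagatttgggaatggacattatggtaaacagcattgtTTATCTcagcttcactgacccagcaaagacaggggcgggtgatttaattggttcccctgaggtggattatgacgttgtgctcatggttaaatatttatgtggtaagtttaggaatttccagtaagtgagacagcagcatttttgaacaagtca
Il1r1 window 1: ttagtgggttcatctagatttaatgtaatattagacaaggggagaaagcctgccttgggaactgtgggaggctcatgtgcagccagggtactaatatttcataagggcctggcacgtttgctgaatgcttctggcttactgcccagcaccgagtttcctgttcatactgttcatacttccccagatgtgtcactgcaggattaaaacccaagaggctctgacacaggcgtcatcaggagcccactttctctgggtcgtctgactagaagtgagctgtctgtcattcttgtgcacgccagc
Il1r1 window 2: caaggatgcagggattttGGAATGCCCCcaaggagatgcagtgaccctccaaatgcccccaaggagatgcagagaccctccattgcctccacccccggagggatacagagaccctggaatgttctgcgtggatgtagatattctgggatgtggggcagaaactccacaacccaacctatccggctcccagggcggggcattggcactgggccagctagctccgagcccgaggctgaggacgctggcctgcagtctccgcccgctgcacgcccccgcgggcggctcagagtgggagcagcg
Il1rn window 1: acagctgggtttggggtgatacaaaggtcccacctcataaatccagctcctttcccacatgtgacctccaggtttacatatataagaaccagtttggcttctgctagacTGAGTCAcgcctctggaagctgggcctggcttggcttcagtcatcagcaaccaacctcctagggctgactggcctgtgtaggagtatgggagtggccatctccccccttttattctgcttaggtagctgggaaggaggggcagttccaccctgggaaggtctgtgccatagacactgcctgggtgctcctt

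Further genes of the family and pathway were taken from lists chosen with earlier results of these data known. Among the other family genes, 3 of 6 were tested, 1 was called higher and 0 were called lower (3.44% and 6.37% of all tested genes). The higher gene was *Il18rap*, which had to differ in this direction as it reached the filter only through the EGFP+ libraries. *Il1rapl2* (0.74) and the IL-18 binding protein gene *Il18bp* (-0.44) were not called. Of 22 genes that carry or restrain the signal from these receptors, 20 were tested. By edgeR's quasi-likelihood test 0 were called higher and 0 lower (3.44% and 6.37% of all tested genes), as with DESeq2. At an unadjusted p under 0.05, 2 were higher and 4 lower (12.2% and 14.5% of all tested genes). Their median log2 fold change was 0.04, against -0.01 over all tested genes. *Myd88*, the adaptor that IL-1R1 and ST2 share, had 127, 117 and 140 tags in EGFP- and 59, 55 and 64 tags in EGFP+ replicates 1, 2 and 3. Its groups did not overlap, and its log2 fold change of -0.95 (SE 0.174, adjusted p = 0.000744 in the quasi-likelihood test of edgeR, Benjamini-Hochberg) stopped short of the fold change of 2. With scaling by library size only it was called, at -1.03. *Tab2* (0.33), *Mapk9* (0.02) and *Irak3* (0.10) were not called. With the replicate block, 1 gene of this list was lower, *Ikbkg*, which encodes the regulatory subunit of the kinase that frees NF-κB (log2 fold change -1.14, adjusted p = 0.0482 in the quasi-likelihood test of edgeR, Benjamini-Hochberg and the block); it was chosen after its value was seen.

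Of 12 genes for the processing of IL-1 family cytokines, 6 were tested. *Casp1*, *Nlrp3*, *Nlrp1b*, *Nlrc4*, *Aim2* and *Prtn3* did not reach the filter, so the counts below do not cover them. *Casp1* had 5, 5 and 10 tags in EGFP- and 7, 9 and 11 tags in EGFP+ replicates 1, 2 and 3. By edgeR's quasi-likelihood test 0 were called higher and 0 lower (3.44% and 6.37% of all tested genes), as with DESeq2. At an unadjusted p under 0.05, 0 were higher and 1 was lower (12.2% and 14.5% of all tested genes). The latter was *Casp4*, whose log2 fold change of -0.67 (adjusted p = 0.0199) missed only the fold change of 2. The median was -0.14, and *Capn2* (-0.04), *Gsdmd* (0.09) and *Capn1* (-0.49) were not called. Of 26 genes known to respond to IL-1 in stromal cells, 25 were tested, 13 were higher and 0 were lower (3.44% and 6.37% of all tested genes), with a median log2 fold change of 1.05. At an unadjusted p under 0.05, 18 were higher and 2 lower (12.2% and 14.5% of all tested genes), and DESeq2 called 14 higher and 0 lower. The 8 called genes with the smallest p were *Cxcl5* (3.43), *Mmp13* (4.75), *Csf3* (3.35), *Mmp3* (3.39), *Ptgs2* (2.10), *Ptges* (2.00), *Cxcl2* (2.48) and *Saa3* (3.11). *Cxcl1* (0.63), *Nfkbia* (0.73), *Il6* (0.72) and *Ccl2* (0.79) were not called; *Cxcl1*, *Nfkbia* and *Ccl2* missed only the fold change of 2 (adjusted p = 0.0248, 0.0116 and 0.0251), while *Il6* had an adjusted p of 0.173. For 17 of the 25 genes all EGFP+ libraries stood above all EGFP- libraries (14.5% of all tested genes), and for 3 below them (16.7% of all tested genes). These 3 were *Nfkbiz* (-0.41), *Birc3* (-0.36) and *Icam1* (-0.20), which were chosen after their values were seen and were not called. *Il6* (1.25) and *Ccl2* (1.08) were called with EGFP- replicate 3 left out. With EGFP+ replicate 3 left out they were at 0.14 and 0.49 (adjusted p = 0.825 and 0.15). Leaving out 1 library breaks a same-numbered pair, and both genes had more normalized CPM in EGFP+ in 3 of 3 such pairs; with the replicate block they were at 0.70 and 0.79 (adjusted p = 9.78e-05 and 9.2e-06), under a fold change of 2. Many of these genes also respond to other signals, and what drove them was not tested.

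Markers of other cells moved with the groups. In a list of mural cell and smooth muscle markers 8 of 10 genes were called lower, against 6.37% of all tested genes. Of the 8, *Notch3* and *Cnn1* reached the filter only through the EGFP- libraries and so had to differ in this direction. *Des*, *Myh11*, *Acta2*, *Cnn1* and *Tagln* are smooth muscle genes that do not single out mural cells, and the source of their RNA was not tested. The list had summed levels of 4468, 4520 and 4961 normalized CPM in EGFP- and 1010, 905 and 957 in EGFP+ replicates 1, 2 and 3, and *Rgs5* was the most abundant. The 2 uncalled genes of this list, *Abcc9* (0.66) and *Kcnj8* (0.71), had higher levels in EGFP+ cells at a fold change under 2. Their adjusted p was 0.0167 and 0.0394 in edgeR's quasi-likelihood test, so the list was mixed. Fibroblast markers, with *Dcn* the most abundant, summed to 23559, 23897 and 26069 and to 44259, 36209 and 31694. Of 11 such markers, 2 were called higher (*Pdpn* and *Col3a1*) and 0 lower, against 3.44% and 6.37% of all tested genes. *Dcn* made up much of each sum. At an unadjusted p under 0.05, 5 of the 11 were higher and 1 was lower (12.2% and 14.5% of all tested genes). The uncalled *Thy1* (0.88, adjusted p = 0.00832 in edgeR's quasi-likelihood test), *Dcn* (0.67, adjusted p = 0.0462) and *Col1a2* (0.42, adjusted p = 0.14) had positive log2 fold changes. *Lum* (-0.64, adjusted p = 0.0378) and *Vim* (-0.27, adjusted p = 0.384) had negative log2 fold changes and were not called. The part of these marker differences in the results for *Il1rl1*, *Il1r1* and *Il1rn* was not tested.

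Markers of cells outside the stroma did not all move one way. Leukocyte markers summed to 4.77, 30.1 and 19.7 normalized CPM in EGFP- and 6.36, 6.09 and 6.68 in EGFP+ replicates 1, 2 and 3, with *Laptm5* the most abundant and 0 of 7 tested. T cell and innate lymphoid markers summed to 21.01, 45.2 and 34.5 and to 71.0, 87.3 and 143, and the most abundant, *Areg*, was the only 1 tested and was called higher (log2 fold change 1.94, adjusted p = 0.000141). Of these 10 markers, 7 had at most 3 tags in any library, and *Cd3e* and *Cd4* were at 0 in all EGFP+ libraries. *Areg* is also expressed by other cells, and its source was not tested. Of 2 genes analysed from a mast cell list, *Kit*, which interstitial cells of Cajal also express, had 63, 34 and 69 tags in EGFP- and 0, 0 and 7 tags in EGFP+ replicates 1, 2 and 3 and was called lower (-4.34, adjusted p = 2.33e-05), having reached the filter only through the EGFP- libraries, and *Hdc* had at most 1 tag; mast cells carry CD45, against which the cells were sorted, and the source of *Kit* was not tested. Myeloid markers, led by *Cxcr2*, summed to 53.5, 66.9 and 47.6 and to 65.7, 37.6 and 48.6, with *Cd74* called lower (log2 fold change -1.50, adjusted p = 0.0468), though not by DESeq2. Endothelial markers, led by *Tek*, summed to 45.8, 30.1 and 45.2 and to 20.1, 15.2 and 12.4. *Tek* was called lower (-1.59, adjusted p = 0.0085 in edgeR's quasi-likelihood test) and was the only 1 of this list tested. Of the 8 endothelial markers, 5 had at most 3 tags in any library, so the sum mostly follows *Tek*. Epithelial markers, led by *Krt8*, summed to 5.73, 2.83 and 23.8 and to 2.12, 3.05 and 4.77, with 0 of 8 tested. Erythroid markers, led by *Hbb-bs*, summed to 90.7, 0 and 305 and to 19.1, 2.03 and 19.1.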

How the data were processed

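Per the methods and labels, the authors used cutadapt 1.18 for trimming and Bowtie2 2.2.5 for one-orientation mapping against RefSeq RNA of mm10, and deposited tag counts per gene symbol, without normalization; the treatment of multi-mapping tags is not given in the sources used here. Genes reaching 10 tags in 3 or more of 6 libraries were compared with edgeR 4.0.16 (R 4.3.3; TMM, glmQLFit, glmQLFTest, Benjamini-Hochberg adjustment over 9334 genes; calls at adjusted p under 0.05 and fold change over 2). The methods print their filter as excluding genes with 10 or more tags, which was read as keeping them. Totals of 1022851 to 1169817 tags put 3 tags, the floor, at 2.56 to 2.93 CPM; the exact interval of *Il18rap* covers counting error only, and PCR copies are not independent. Intervals of log2 fold changes and their Wald standard errors come from the edgeR fit, which includes replicate variation and was tested on simulated data.

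Replicate numbers come from the labels and the methods name 3 mice. Same-numbered libraries deviated together from their group means (r = 0.231, 0.209 and 0.27 across 5064 genes, which are not independent replicates), so a fit with the replicate block was run as an alternative. Other alternatives were RLE, iterative TMM, library size only, DESeq2 1.42.0, no filter, the adjusted p alone, and each library left out in turn. The 10 genes and the gene lists were chosen with earlier results of these data known. Genes named by rule are the 10, the 5 most similar genes, genes starting within the receptor cluster, and *Il11*. Up to 8 called and 4 uncalled genes of each list are also named by rule. *Ikbkg*, *Nfkbiz*, *Birc3*, *Icam1* and *Thy1* were named after their values were seen. The most abundant gene of each marker list given and some genes with few tags are named as well.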

Additional observations from a re-analysis of the deposited data

How the results depend on the processing

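*Il1rl1*, *Il1r1* and *Il1rn* were called higher, and 0 of the 10 genes lower, in every alternative run. Their log2 fold changes ranged from 5.34 to 6.29, from 1.07 to 1.20 and from 2.38 to 3.44. Without a fold-change threshold 638 genes were higher, in place of 321. With the replicate block 337 genes were higher and 648 lower, of which 318 of the higher were shared, and apart from *Ikbkg* the block changed no call of a gene named here. With 1 library left out, some uncalled log2 fold changes crossed 0: *Il33* ranged from -0.26 to 0.16, *Il1r2* from -0.29 to 0.50, *Il1rap* from -0.025 to 0.29, *Il18bp* from -0.78 to 0.088, *Mapk9* from -0.071 to 0.11, *Irak3* from -0.011 to 0.27, *Capn2* from -0.20 to 0.13 and *Gsdmd* from -0.027 to 0.21. With scaling by library size only, *Il1r2* was at -0.0022 and *Mapk9* at -0.070; the cause was not tested. Depth limits *Il1a*, *Il1b* and *Il18*, at 5 tags or fewer, and widens the intervals of *Il1r2* and *Il1rn*.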
